A study of Saccharomyces cerevisiae with 6 samples.

Results

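The regions described here were the intergenic gaps of the budding yeast genome that lie between 2 neighbouring divergent open reading frames (ORFs), the left one on the Crick strand and the right one on the Watson strand. Both genes then point away from the gap, and each strand of the gap leads into the start of 1 gene. This layout was found for 1444 gaps of the deposited annotation. Of these, 1211 were 200 to 2000 bp long, 1123 of them held no replication origin, tRNA, snoRNA or retrotransposon, and 1096 had a number in every bin. The 1096 gaps make up 11575 of the 240976 bins of 50 bp, among 5711 gaps of any kind, and their median length was 450 bp, with quartiles of 250 and 662 bp. At the edges of the rule, 167 gaps were exactly 200 bp long and 3 were 2000 bp long, while 101 divergent gaps of 150 bp and 60 over 2000 bp fell outside. Values could be read for 1091 gaps, or 2182 gap strands, 2114 of which lead into a gene of the RefSeq annotation.

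Poly(A) RNA was sequenced strand by strand from exponentially growing yeast in rich medium, in 3 groups of 2 libraries. The rtt109 deletion carries Δrtt109::Kan in a MATa strain labelled RAD5+ and psi+, with the ade2-1 allele and no tag on RNA polymerase II. The hst3 hst4 deletion carries Δhst3::HygMX and Δhst4::NatMX, is labelled MATalpha, and has ADE2 restored and an HA tag on the polymerase subunit Rpb3. The wild type is MATa with the same ADE2 and Rpb3 alleles. All strains share a bar1 deletion, marker mutations in his3, leu2, trp1, ura3 and can1, and 2 transgenes for thymidine uptake, a thymidine kinase under GDP and the transporter hENT1 under ADH. Labelled strain differences in ADE2, RAD5, mating type and the Rpb3 tag therefore go with the groups. Their part cannot be told apart from that of the named deletions. For mating type, the expression given below went against the label of hst3 hst4. No label says that the replicates were separate cultures, so the p-values below measure only how far these libraries spread, which may be technical.

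A divergent gap usually holds the promoters of both of its genes, placed back to back or shared, in a stretch poor in nucleosomes. The RNA that maps to it comes from the leaders of the 2 genes, from transcripts that begin further upstream on the same strand, and from short non-coding transcripts that run against a gene. Rtt109 acetylates lysine 56 of newly made histone H3, Hst3 and Hst4 remove the mark, and the mark is laid down with new nucleosomes during replication and during histone exchange at promoters.

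Promoter sequence is shown for 6 of the genes that passed the threshold below, picked as examples and not by rank. Each line is the 250 bases that lie 300 to 51 bases before the start codon, 5′ to 3′ towards the gene, from RefSeq assembly R64, and the capitals mark the motif matches found in either orientation. The windows are chrVI:106956-107205 on the plus strand for HSP12, chrIV:1362232-1362481 on the minus strand for YHP1, chrIV:915230-915479 on the plus strand for HTA1, chrXIII:158460-158709 on the plus strand for HUG1, chrIX:408168-408417 on the plus strand for DAL4 and chrIX:258331-258580 on the minus strand for MMF1.
HSP12: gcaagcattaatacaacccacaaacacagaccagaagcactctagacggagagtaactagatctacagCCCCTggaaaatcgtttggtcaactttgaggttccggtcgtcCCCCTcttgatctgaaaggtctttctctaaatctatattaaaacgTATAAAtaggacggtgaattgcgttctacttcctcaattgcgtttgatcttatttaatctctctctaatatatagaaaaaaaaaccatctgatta
YHP1: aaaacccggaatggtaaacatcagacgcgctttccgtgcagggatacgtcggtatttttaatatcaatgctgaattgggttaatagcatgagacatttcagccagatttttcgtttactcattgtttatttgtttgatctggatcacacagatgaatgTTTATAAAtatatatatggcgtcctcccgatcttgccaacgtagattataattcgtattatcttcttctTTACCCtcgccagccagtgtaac
HTA1: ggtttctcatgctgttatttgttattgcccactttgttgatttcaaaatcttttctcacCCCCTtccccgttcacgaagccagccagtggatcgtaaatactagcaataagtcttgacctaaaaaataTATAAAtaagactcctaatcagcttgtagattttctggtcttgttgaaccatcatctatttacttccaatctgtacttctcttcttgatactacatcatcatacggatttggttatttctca
HUG1: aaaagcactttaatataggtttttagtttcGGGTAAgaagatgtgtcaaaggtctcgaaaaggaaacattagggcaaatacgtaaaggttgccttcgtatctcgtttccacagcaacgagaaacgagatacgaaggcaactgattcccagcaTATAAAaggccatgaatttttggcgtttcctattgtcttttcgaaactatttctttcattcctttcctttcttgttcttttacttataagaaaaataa
DAL4: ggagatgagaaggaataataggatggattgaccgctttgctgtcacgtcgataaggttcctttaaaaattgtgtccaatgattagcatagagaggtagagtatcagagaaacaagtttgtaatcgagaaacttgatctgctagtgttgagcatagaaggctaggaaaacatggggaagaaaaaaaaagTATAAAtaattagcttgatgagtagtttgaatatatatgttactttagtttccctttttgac
MMF1: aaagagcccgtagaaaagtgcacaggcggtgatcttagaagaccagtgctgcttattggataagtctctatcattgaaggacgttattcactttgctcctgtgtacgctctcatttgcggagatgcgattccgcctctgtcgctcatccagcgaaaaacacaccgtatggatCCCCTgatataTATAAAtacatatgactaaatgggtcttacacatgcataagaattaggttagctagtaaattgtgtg

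The motifs searched on both strands were the stress response element AGGGG, the TATA box TATAAA, the Reb1 site TTACCC, the Pho4 site CACGTG, the Gcn4 site TGACTC and the cell-cycle boxes ACGCGT and CGCGAAA. The HSP12 window held 2 stress response elements, beginning 232 and 190 bases before the start codon, and a TATA box at 145. The HTA1 and MMF1 windows each held 1 stress response element and 1 TATA box, and the DAL4 window held a TATA box alone. The HUG1 window held a TATA box and a Reb1 site, and the YHP1 window held a Reb1 site and 2 TATA matches, on opposite strands, that overlap each other. Over all genes, 19.2% of 6001 such windows held the stress element, 43.1% the TATA box and 15.8% the Reb1 site. Over the 2114 windows next to divergent gaps the shares were 20.3%, 36.3% and 18.8%. A match is a description of the letters and not a site shown to be bound.

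The deleted genes had coverage at or near 0 in their own strains. RTT109 had 0 and 0.00132 in the rtt109 libraries, against 0.778 and 0.845 in wild type, and HST3 had 0.000743 and 0 in hst3 hst4, against 1.29 and 1.37 in wild type. The hst3 hst4 libraries went against their label in mating type: STE2, an a-specific receptor gene, had 22.9 and 24 there, against 15.4 and 31.1 in the MATa wild type. MF(ALPHA)1, an alpha-specific pheromone gene, had 0.287 and 0.307 in hst3 hst4, against 0.0442 and 0.0277 in wild type, and the alpha-specific SAG1 had 0.731 and 0.854, against 0.533 and 0.535. STE3, the alpha-specific receptor gene, had 0.0306 and 0.0433 in hst3 hst4, against 0.00497 and 0.0163 in wild type. Values were coverage scaled by the authors to fission yeast RNA added to each sample, in units of their own, summing to 474278 and 611350 in the rtt109 libraries, 763469 and 654763 in hst3 hst4 and 678558 and 784679 in wild type. The smallest common step above 0 lay between 0.00398 and 0.0124 per library, so a bin at such a value rests on very few reads, and the number of reads is unknown.

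Coverage in divergent gaps was low and concentrated next to the genes. Coverage distances here and below are counted in 50 bp bins from the gap edge next to the gene, which stands in for its start codon. Gaps between the same genes were longer in RefSeq by a median of 48 bp, with quartiles of 33 and 61 bp. These distances can therefore be off by about 1 bin. In the first 50 bp before the start codon, the median over 2182 gap strands was 0.154 and 0.257 in the rtt109 libraries, 0.271 and 0.247 in hst3 hst4, and 0.244 and 0.288 in wild type. From 150 to 200 bp it was 0.00771 and 0.0132 in rtt109, 0.0193 and 0.0247 in hst3 hst4, and 0.0119 and 0.0109 in wild type. At those distances the medians stand at 1 to 3 steps of each library, and 22.4 to 34.3% of gap strands were at 0, so small differences between libraries there cannot be read.

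**Figure D1:**
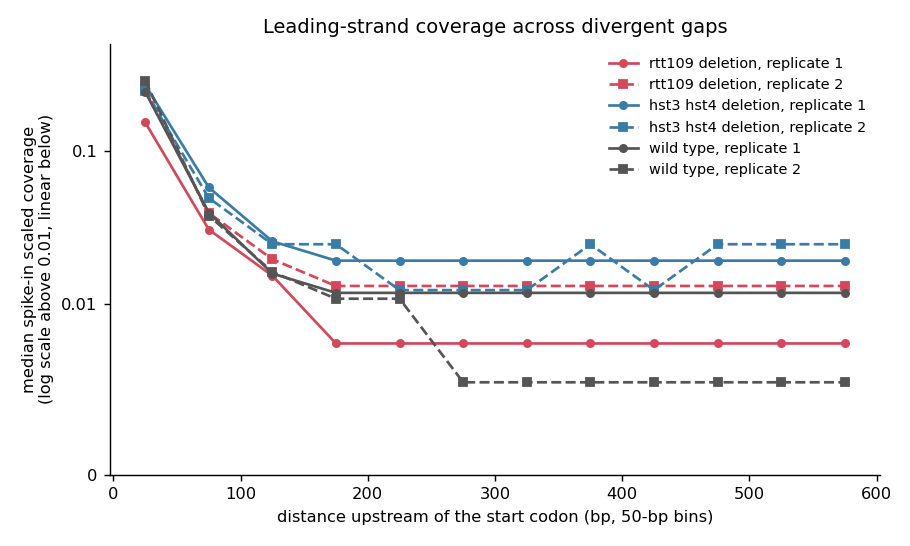
Median spike-in scaled coverage (vertical axis, log scale above 0.01 and linear below) of the strand leading into the gene, by distance upstream of its start codon in bp, for each of the 6 libraries. Every library drops steeply within the first 200 bp, with medians of 0.154 to 0.288 in the first bin and 0.00771 to 0.0247 in the fourth.

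Over whole gap strands, the median coverage was 0.0449 and 0.0666 in rtt109, 0.0853 and 0.0742 in hst3 hst4, and 0.0695 and 0.0723 in wild type. Tandem gaps set the scale, since on their leading strand an upstream gene ends and the next begins: there the medians were 0.202 and 0.27 in rtt109, 0.384 and 0.274 in hst3 hst4, and 0.325 and 0.309 in wild type. On the opposite strand of tandem gaps, into which no gene is led, wild type had 0.0238 and 0.00814. Of the 2114 strands, 48 had a RefSeq gene next upstream on the same strand, in 45 cases because the far ORF of the table is not in RefSeq. Their wild-type medians were 0.201 and 0.226, against 0.0699 and 0.0738 for the 2066 strands with the next gene on the other strand.

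The 2 strands of a gap had unlike levels. In wild type the higher strand exceeded the lower by a median factor of 2.8 and 3.04, and 12.8% and 16.8% of the 1091 gaps had strands more than 10-fold apart. Across gaps, log2 levels of the 2 strands had a Pearson r between 0.00 and 0.09 in the mutant libraries and r of 0.11 and 0.01 in wild type, where each pair of points shares a library and a stretch of DNA. The gap strand and the ORF it leads into were related more closely, with r of 0.57 to 0.60 in the mutants and 0.55 and 0.62 in wild type over 2175 strands. The gap strand stood far below its ORF, by a median log2 difference of -3.86 and -4.01 in wild type, and above it in 86 and 79 strands.

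The highest gap strands in wild type led into highly expressed or leader-regulated genes. CCW12, which encodes an abundant cell wall mannoprotein, had 18.7 and 31.9 on its gap strand in rtt109, 27 and 45.7 in hst3 hst4, and 32.6 and 32.2 in wild type. RPL41B, a ribosomal protein gene, had 5.87 and 10.6 in rtt109, 18.1 and 5.75 in hst3 hst4, and 19.7 and 14.6 in wild type. GCN4, the amino acid starvation activator known for a long leader with upstream reading frames, had 3.47 and 7.29 in rtt109, 8.74 and 5.01 in hst3 hst4, and 7.78 and 7.99 in wild type, and its signal carried on beyond 200 bp at 7.36 and 9.57 in wild type. MPC2, NCW1 and RPS29A completed the highest 6, with wild-type means of 12.9, 7.07 and 6.17. None of the 6 passed the threshold in any comparison. RPL41B and RPS29A have near-identical second copies, so how reads were shared between copies is uncertain.

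Averaged over all divergent gaps, coverage per bin was 0.144 and 0.214 in rtt109, 0.276 and 0.207 in hst3 hst4, and 0.233 and 0.263 in wild type. The rtt109 mean was 0.179 ± 0.0492, the hst3 hst4 mean 0.241 ± 0.0485 and the wild-type mean 0.248 ± 0.021 (SD, n = 2 each). Both rtt109 libraries lay below both wild-type libraries, and the exact two-sided permutation test gave p = 0.33, the smallest value that 2 against 2 can reach. For hst3 hst4 against wild type the same exact permutation test gave p = 1, and the groups overlapped. As a share of all coverage in the library, divergent gaps took 0.701% and 0.805% in rtt109, 0.831% and 0.728% in hst3 hst4, and 0.791% and 0.772% in wild type, with the hst3 hst4 libraries on either side of wild type and 1 rtt109 library above it. Read at the table's own positions, without the register shift, the shares were 2% and 2.26% in rtt109, 2.43% and 2.05% in hst3 hst4, and 2.43% and 2.41% in wild type, and the difference in mean coverage between rtt109 and wild type was -0.261, against -0.069 with the shift.

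The next comparison asked which gap strands changed in the rtt109 deletion. All ORFs and all gap strands of any layout entered 1 limma fit, on log2 of coverage plus 0.0193, which understates the change of weak features. Of the 2182 gap strands, 1762 passed the filter on low values. Relative to wild type, 7 of these had an adjusted p under 0.05 (Benjamini-Hochberg over 12091 features), 3 higher and 4 lower, or 0.397%. Over all features tested 0.91% passed, 0.761% higher and 0.149% lower. By unadjusted p, 182 of the 1762 strands (10.3%) were under 0.05, against 13.7% of all features. Both rtt109 libraries lay above both wild-type libraries in 8.12% of gap strands and 11.5% of all features, and below them in 36.3% and 42.7%. The median log2 fold change over all features was -0.37, and the 1762 gap strands had -0.36, so the spike-in scaling places the typical gap strand lower by the same amount as the typical feature. With each library centred on its median, 320 of the 12091 features passed, 296 higher and 24 lower, and 16 gap strands did, 12 higher and 4 lower. On the authors' columns normalized to 1, 227 of 12114 features passed, 220 of them higher, and 10 gap strands did, 9 of them higher. Without either of the rtt109 libraries none passed, while leaving out replicate 1 or replicate 2 of hst3 hst4 gave 19 and 21.

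**Figure D2:**
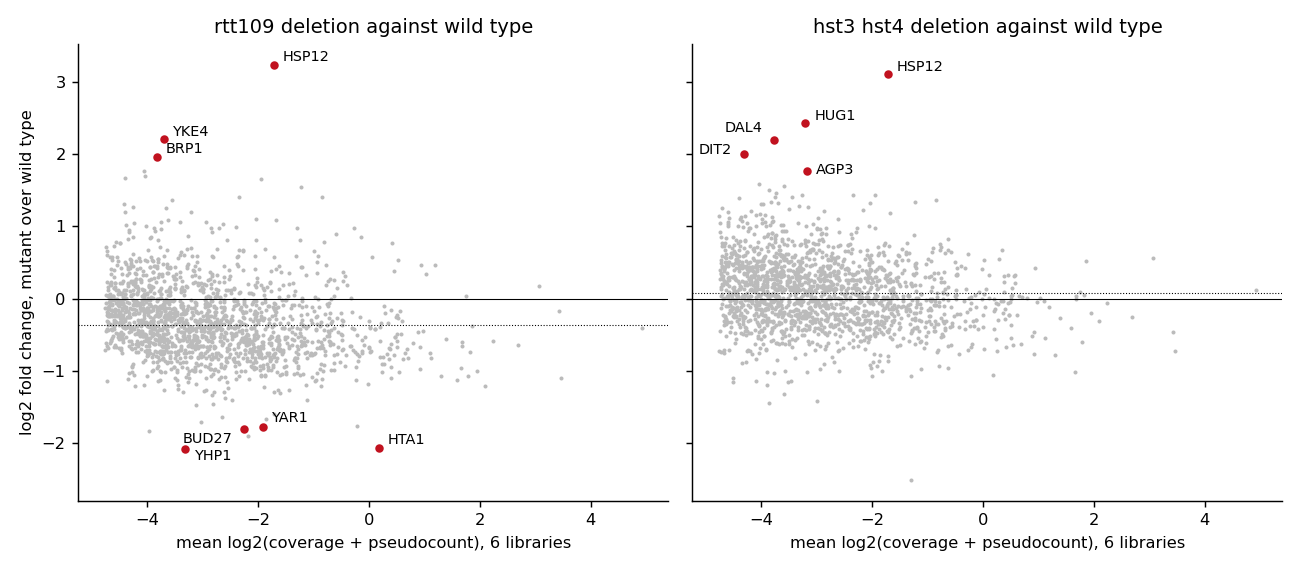
Log2 fold change over wild type (vertical axis) against mean log2(coverage + pseudocount) over the 6 libraries, for the 1762 divergent gap strands tested, with the rtt109 deletion at left and the hst3 hst4 deletion at right; red points have an adjusted p under 0.05 and the dotted line is the median of all features. HSP12 stands highest in both panels, at 3.24 and 3.11, and the bulk in the rtt109 panel lies below 0, around -0.36.

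HSP12 showed the largest rise. It encodes a small heat shock protein of the plasma membrane that is induced by many stresses, and it is led into by the 200 bp gap YFL015C-HSP12 on chromosome VI, whose promoter sequence is given above. The gap strand had 0.69 and 0.602 in rtt109, 0.865 and 0.396 in hst3 hst4, and 0.0318 and 0.0774 in wild type. All 4 mutant libraries lay above both wild-type libraries, at each of the 4 bins of the gap. The log2 fold change was 3.24 ± 0.45 (SE) in rtt109 (limma, adjusted p = 0.00141) and 3.11 ± 0.45 in hst3 hst4 (limma, adjusted p = 0.00206). These 2 comparisons share the wild-type libraries. The HSP12 ORF had 93 and 60.8 in rtt109, 58.5 and 21 in hst3 hst4, and 0.596 and 4.14 in wild type, a log2 fold change of 5.55 and 4.45. The opposite strand, towards the uncharacterised YFL015C, stayed between 0 and 0.0289 in every library.

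YKE4, which encodes a zinc transporter, and BRP1 were the other 2 gap strands that rose in rtt109. The YKE4 strand had 0.093 and 0.2 in rtt109, 0.0584 and 0.0733 in hst3 hst4, and 0.0176 and 0.012 in wild type, with its coverage in the first 150 bp before the start codon. Its log2 fold change in rtt109 was 2.21 ± 0.43 (limma, adjusted p = 0.0215), and its ORF, at 1.14 ± 0.38, did not pass. The other gene of that gap, TIM44, neighbours RPB3, which is tagged in wild type and hst3 hst4 and not in rtt109. BRP1 is a dubious ORF in the region upstream of the proton pump gene PMA1. Its strand had 0.11 and 0.107 in rtt109, 0.0773 and 0.0526 in hst3 hst4, and 0.0109 and 0.0163 in wild type, and rose by a log2 fold change of 1.96 ± 0.40 in rtt109 (limma, adjusted p = 0.0279). In both gaps the hst3 hst4 libraries lay between the other groups.

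YHP1, a homeobox repressor that acts in the cell cycle, had the lowest fold change. Its gap strand in the 650 bp YHP1-PPN1 gap had 0.0107 and 0.0238 in rtt109, 0.151 and 0.19 in hst3 hst4, and 0.135 and 0.13 in wild type. The rtt109 libraries lay far below the other 4. The log2 fold change was -2.08 ± 0.40 in rtt109 (limma, adjusted p = 0.0193) and 0.31 ± 0.40 in hst3 hst4. From 200 to 650 bp upstream, rtt109 held 0 to 0.0263 in every bin and wild type held 0.0651 to 0.271. Wild type had 0.215 and 0.353 in the first 50 bp and 0.0437 and 0.0163 from 50 to 100 bp. It reached 0.262 and 0.271 at 600 to 650 bp, next to PPN1. Whether the RNA far from YHP1 belongs to that gene was not tested. The YHP1 ORF had 0.541 and 0.806 in rtt109, 1.25 and 1.57 in hst3 hst4, and 1.05 and 1.56 in wild type, a difference of -0.94 ± 0.39 that did not pass. PPN1, on the other strand, had a log2 difference of -0.55 that did not pass either.

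HTA1 encodes histone H2A and shares its gap with HTB1, for H2B. The strand leading into HTA1 had 0.42 and 0.693 in rtt109, 1.64 and 0.737 in hst3 hst4, and 2.95 and 1.82 in wild type, and fell by a log2 fold change of -2.06 ± 0.45 in rtt109 (limma, adjusted p = 0.0396), a call that passed in 7 of 18 alternatives. The groups did not overlap. Its coverage sat in the first 100 bp, with 5.88 and 9.56 in rtt109 and 42.8 and 26.2 in wild type in the first bin, and the ORF showed a difference of similar size, -1.92 ± 0.51, that did not pass. HTB1 on the opposite strand had 0.11 and 0.116 in rtt109, 0.358 and 0.18 in hst3 hst4, and 0.217 and 0.28 in wild type, a log2 difference of -1.01 with an adjusted p of 0.324 by limma. Histone genes have close copies, so how reads were shared between HTA1 and HTA2 is uncertain.

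YAR1 and BUD27 completed the falls. YAR1 encodes an ankyrin-repeat chaperone of a small-subunit ribosomal protein, and its gap is shared with HSP82, a heat shock chaperone gene. The YAR1 strand had 0.0833 and 0.127 in rtt109, 0.398 and 0.312 in hst3 hst4, and 0.321 and 0.5 in wild type, a log2 fold change of -1.78 ± 0.40 (limma, adjusted p = 0.0468) that passed in 7 of 18 alternatives. Its profile had a separate block of RNA between 50 and 450 bp upstream. There the coverage per bin was 0.0263 to 0.0925 in rtt109, 0.223 to 0.515 in hst3 hst4 and 0.217 to 0.51 in wild type, with no overlap in any of the 8 bins, and it ended near 550 bp, where all 6 libraries were at 0. BUD27, an unconventional prefoldin, had 0.0662 and 0.111 in rtt109, 0.21 and 0.219 in hst3 hst4, and 0.359 and 0.34 in wild type, a log2 fold change of -1.80 ± 0.39 (limma, adjusted p = 0.0388) that passed in 8 of 18. That RNA lay away from BUD27. Within 150 bp of its start codon 5 of the libraries were at 0, and the coverage lay beyond 200 bp and was highest at 450 to 550 bp of the 600 bp gap, close to the start of EPL1 and on the strand opposite to that gene. EPL1 encodes a subunit of the NuA4 histone acetyltransferase, and its own gap strand had a log2 difference of -0.59 that did not pass.

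**Figure D3:**
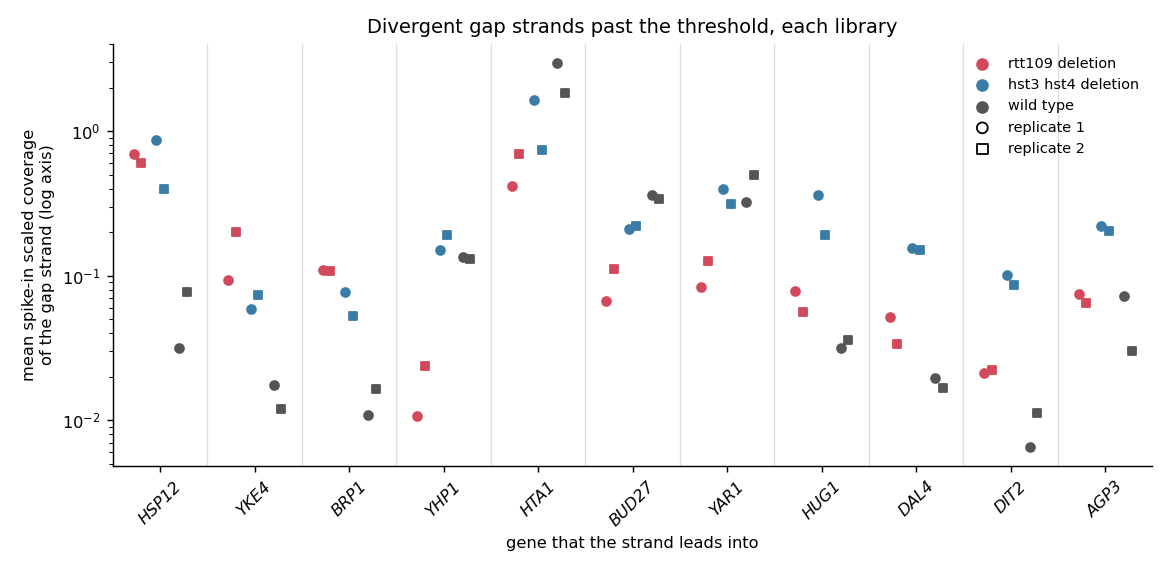
Mean spike-in scaled coverage (vertical axis, log scale) of each divergent gap strand that passed the threshold against wild type in either mutant, by the gene it leads into; each point is 1 library, circles replicate 1 and squares replicate 2, with rtt109, hst3 hst4 and wild type side by side. For YHP1 the rtt109 points sit at 0.0107 and 0.0238 and the other 4 between 0.13 and 0.19, while for HSP12 the wild-type points stand apart, at 0.0318 and 0.0774.

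To separate RNA that begins far from the gene, the part of each strand more than 200 bp upstream of the start codon was tested as an upstream zone. Of 1608 such zones 758 passed the filter. In rtt109 against wild type 3 rose and 4 fell, or 0.923%, where 1.74% of all features passed, 1.38% higher and 0.365% lower. Unadjusted p was under 0.05 for 10.7% of zones and 15.3% of all features. Zones lay wholly above wild type in 17.8% and wholly below in 31% of cases, against 14.4% and 42.1% of all features. With each library centred on its median 257 of 9580 features passed, 235 higher and 22 lower, and 11 zones did, 7 higher and 4 lower. YHP1, YAR1 and BUD27 fell as zones too, by log2 fold changes of -2.51 ± 0.39, -2.04 ± 0.37 and -1.87 ± 0.36 (limma, adjusted p = 0.0038, 0.00984 and 0.0157). YAR1 had 0.0263 and 0.0269 in its zone in rtt109, 0.191 and 0.167 in hst3 hst4, and 0.165 and 0.175 in wild type. The rtt109 libraries lay well below the rest. Without either rtt109 library no zone passed, without either hst3 hst4 library 19 did, and without either wild-type library 4 did.

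ADE12, which encodes adenylosuccinate synthase of purine synthesis, was the fourth zone that fell. The zone had 0.0393 and 0.0592 in rtt109, 0.239 and 0.0854 in hst3 hst4, and 0.36 and 0.253 in wild type. The log2 fold change was -2.24 ± 0.44 in rtt109 (limma, adjusted p = 0.0181), and in hst3 hst4 the difference of -0.97 did not pass. The RNA formed a short block between 200 and 400 bp upstream, peaking at 0.123 and 0.197 in rtt109 and at 1.17 and 0.82 in wild type, and all libraries were at 0 from 450 to 650 bp. In the first 50 bp before the gene the rtt109 libraries were instead above wild type, with 2.12 and 3.24 in rtt109 and 1.28 and 1.57 in wild type. The ADE12 ORF had 8.15 and 8.29 in rtt109, 3.74 and 3.46 in hst3 hst4, and 2.6 and 3.63 in wild type, a difference of 1.41 ± 0.39 with an adjusted p of 0.109 by limma. The rtt109 strain also differs in ADE2, another gene of purine synthesis.

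The 3 zones that rose in rtt109 led into MRP7, MMF1 and CRR1, and in each the ORF did not pass. MMF1 encodes a conserved mitochondrial protein, and its zone had 0.225 and 0.308 in rtt109, 0.0797 and 0.068 in hst3 hst4, and 0.0676 and 0.0394 in wild type. Both rtt109 libraries lay above the other 4, with a log2 fold change of 1.99 ± 0.39 (limma, adjusted p = 0.0169). The gain was a block between 50 and 400 bp upstream, at 0.324 to 0.75 in rtt109, 0.0708 to 0.219 in hst3 hst4 and 0.0437 to 0.238 in wild type, with a sharp edge at 400 bp beyond which rtt109 had 0.0154 and 0.0132. The MMF1 ORF had 11.5 and 9.44 in rtt109 and 9.05 and 10 in wild type, a difference of 0.13 ± 0.40. The block spans most of the promoter window printed above, including its TATA box at 117 bases.

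MRP7, for a protein of the mitochondrial ribosome, had 0.179 and 0.115 in its zone in rtt109, 0.0477 and 0.0223 in hst3 hst4, and 0.0151 and 0.0217 in wild type, a log2 fold change of 2.12 ± 0.43 (limma, adjusted p = 0.0208). CRR1, for a putative enzyme of the spore wall, had 0.12 and 0.0954 in rtt109, 0.0531 and 0.0309 in hst3 hst4, and 0.0224 and 0.00746 in wild type, a log2 fold change of 1.92 ± 0.43 (limma, adjusted p = 0.0348). Neither ORF was higher in the rtt109 libraries than in wild type, with differences of -0.67 and -0.34 on the log2 scale.

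**Figure D4:**
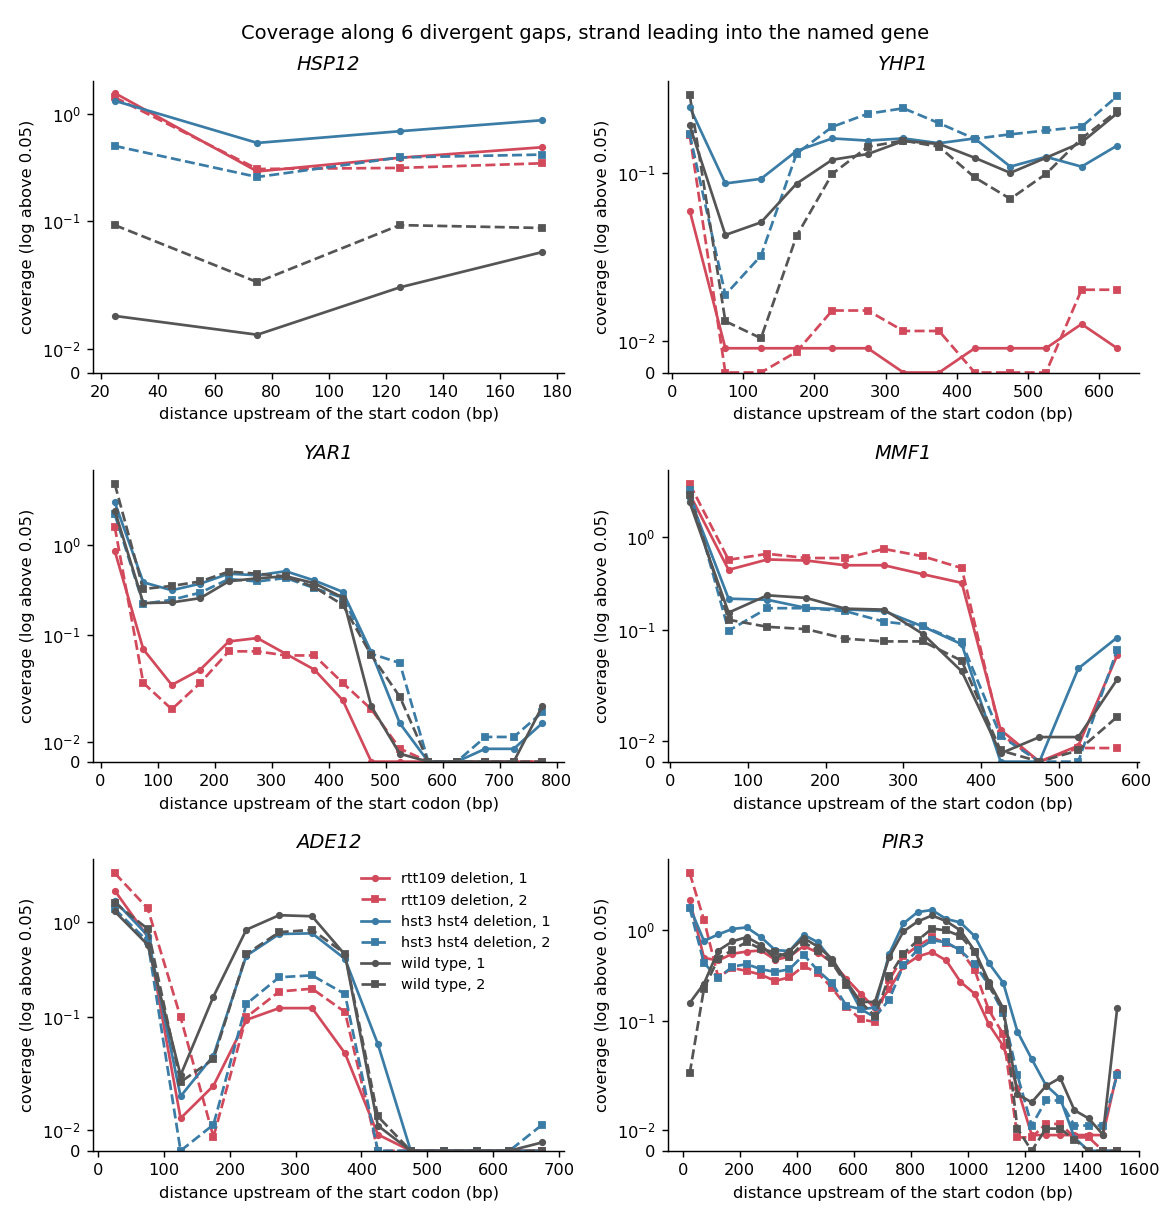
Spike-in scaled coverage (vertical axes, log scale above 0.05) along 6 divergent gaps, on the strand leading into the named gene, by distance upstream of its start codon in bp; lines are libraries, 2 per group. The rtt109 lines run below the others across YHP1, between 50 and 450 bp at YAR1 and between 200 and 400 bp at ADE12, above them between 50 and 400 bp at MMF1, and overlap them between 100 and 650 bp at PIR3. Between 700 and 1150 bp at PIR3 the rtt109 lines run below the wild-type lines.

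In the hst3 hst4 deletion against wild type, 5 gap strands rose and none fell, or 0.284%, where 1.46% of all features passed, 1.44% higher and 0.0165% lower. The median log2 fold change over all features was 0.07. By unadjusted p, 103 of the 1762 strands (5.85%) were under 0.05, against 7.88% of all features. Both hst3 hst4 libraries lay above both wild-type libraries in 24% of gap strands and 22.9% of all features, and below them in 11.6% and 8.47%. Without either rtt109 library none passed, and without replicate 2 of hst3 hst4 8 did. HSP12 was given above. HUG1, induced by DNA damage and known to restrain ribonucleotide reductase, had 0.0788 and 0.0556 in rtt109, 0.36 and 0.192 in hst3 hst4, and 0.0314 and 0.0356 in wild type. The hst3 hst4 libraries lay above all others, and the log2 fold change was 2.43 ± 0.42 (limma, adjusted p = 0.0078). That coverage lay in the first 50 bp, with 3.1 and 1.68 in hst3 hst4 and 0.231 and 0.282 in wild type, and the ORF rose by 3.11 ± 0.41.

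DAL4 encodes the allantoin permease and shares its gap with DAL1, for allantoinase, in the cluster for use of allantoin as a nitrogen source. The DAL4 strand had 0.0515 and 0.0337 in rtt109, 0.155 and 0.15 in hst3 hst4, and 0.0196 and 0.0166 in wild type. The 3 groups were separate, and hst3 hst4 differed from wild type by a log2 fold change of 2.20 ± 0.40 (limma, adjusted p = 0.0101). Its ORF rose by 2.29 ± 0.40, and in rtt109 by 1.78 ± 0.40 (limma, adjusted p = 0.0498). DAL1 on the other strand differed by 0.36 in hst3 hst4 and did not pass. The DAL4 strand in hst3 hst4 was highest between 150 and 250 bp upstream, at 0.309 and 0.247. In the first 50 bp it had only 0.0129 and 0. DIT2, for dityrosine synthesis in the spore wall, had 0.0213 and 0.0221 in rtt109, 0.101 and 0.0866 in hst3 hst4, and 0.00655 and 0.0112 in wild type, a log2 fold change of 2.01 ± 0.41 (limma, adjusted p = 0.0194), with its ORF higher by 1.97. The DIT2 strand in hst3 hst4 was highest between 550 and 650 bp upstream, at 0.168 and 0.161, and had 0.0193 and 0 in the first 50 bp. The wild-type means of the DAL4 and DIT2 strands, 0.0181 and 0.00886, lie under the pseudocount of 0.0193. Both strands therefore passed the filter through the mutant libraries. DIT1, the divergent partner in the same pathway, differed by 0.38 and did not pass. AGP3, for an amino acid permease, had 0.0746 and 0.065 in rtt109, 0.22 and 0.202 in hst3 hst4, and 0.0727 and 0.0299 in wild type, a log2 fold change of 1.77 ± 0.42 (limma, adjusted p = 0.044) that passed in 5 of 17 alternatives, and its ORF did not pass. In RefSeq the gene next upstream of AGP3, THI5, lies on the same strand 3052 bp away.

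Of the upstream zones, 6 rose and none fell in hst3 hst4 against wild type, or 0.792%, where 2.23% of all features passed, 2.19% higher and 0.0418% lower. By unadjusted p 114 zones (15%) were under 0.05, against 10.6% of all features. Both hst3 hst4 libraries lay above both wild-type libraries in 40.2% of zones and 26.8% of all features, and below them in 4.88% and 7.21%. The median log2 fold change of the 758 zones was 0.33, against 0.11 over all features of that fit. The distance between these medians depended on the wild-type library. Without replicate 1 of wild type they were 0.45 and 0.08, and without replicate 2 they were 0.22 and 0.17. Fitted without ORFs, the 3609 zones of all layouts had a median of 0.20. Opposite-strand zones of tandem gaps had median coverage of 0.0309 and 0.0247 in hst3 hst4, and 0.0207 and 0.00869 in wild type. Divergent zones had 0.022 and 0.0227, and 0.0171 and 0.00905, in the same order. Higher values in hst3 hst4 were thus not particular to divergent gaps. YBT1, for a vacuolar ABC transporter, had 0.123 and 0.125 in its zone in rtt109, 0.642 and 0.355 in hst3 hst4, and 0.0636 and 0.0308 in wild type. The log2 fold change was 2.95 ± 0.40 (limma, adjusted p = 0.00123), with an ORF difference of -0.25. The coverage increased away from YBT1 towards the far end of the gap, where RefSeq places RNP1 on the same strand 448 bp from YBT1. DAL4, AGP3 and DIT2 rose as zones by 2.25, 2.16 and 2.05, HTC1 by 1.69, and ECO1, for the cohesin acetyltransferase, was the sixth. The DAL4 and DIT2 zones again had wild-type means under the pseudocount, 0.0187 and 0.00993. Without either rtt109 library 1 zone passed, without replicate 2 of hst3 hst4 13 did, and without replicate 1 of wild type 3 did.

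Setting hst3 hst4 directly against rtt109, where the median of all features was 0.44, 1 gap strand rose and none fell, or 0.0568%, against 0.182% of all features, 0.149% higher and 0.0331% lower. An unadjusted p under 0.05 was found for 198 strands (11.2%) and 12.3% of all features. The hst3 hst4 libraries lay wholly above rtt109 in 45.1% of strands and wholly below in 3.46%, against 47.8% and 3.87% of all features. That strand was YHP1, with a log2 fold change of 2.39 ± 0.40 (limma, adjusted p = 0.0216) for the values above. Among upstream zones 2 rose and 1 fell, or 0.396%, against 0.522% of all features, 0.428% higher and 0.0939% lower. Unadjusted p was under 0.05 for 21.9% of zones and 15.4% of all features, and zones lay wholly above rtt109 in 51.8% and wholly below in 3.3% of cases, against 49.7% and 4.25%. YHP1 and YAR1 were higher in hst3 hst4 by 2.83 ± 0.39 and 2.11 ± 0.37 (limma, adjusted p = 0.00424 and 0.0243). TDA2, for an actin patch protein, had a lower zone in hst3 hst4, at 0.128 and 0.176, against 0.623 and 0.827 in rtt109 and 0.58 and 0.238 in wild type. Its log2 fold change was -2.12 ± 0.42 (limma, adjusted p = 0.0383), and the RNA lay in the last 150 bp of the gap, next to VTC1, reaching 0.354 and 0.606 in hst3 hst4 and 1.95 and 2.44 in rtt109. Without either rtt109 library no strand or zone passed in this comparison. Leaving out replicate 1 or 2 of hst3 hst4 gave 3 and 5 strands and 7 and 16 zones, and leaving out replicate 1 or 2 of wild type gave 2 strands each and 9 and 10 zones.

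The ratio of the gap strand to its own ORF asked whether the 2 moved apart. The pseudocount was added to both, so the scaling of a library does not fully cancel where the gap strand is weak. With a pseudocount 10 times larger the median change over all ratios was 0.08 in rtt109 and -0.13 between the mutants, against -0.07 and 0.02 as reported. Of 1748 ratios tested in rtt109 against wild type, 18 were lower and 1 was higher, or 1.09%, where 1.35% of the 3628 ratios of all layouts passed, 0.165% higher and 1.19% lower. Unadjusted p was under 0.05 for 10.8% of the 1748 and 12.8% of all ratios. The rtt109 ratios lay wholly above wild type in 18.2% and wholly below in 23.1% of cases, against 17.8% and 25.1% of all ratios. Of the 18 lower ratios, 13 had an ORF that rose and none had a gap strand past the threshold. PIR3, for a cell wall glycoprotein, had the lowest. Its gap strand had 0.354 and 0.416 in rtt109, 0.621 and 0.328 in hst3 hst4, and 0.468 and 0.372 in wild type, and the groups overlapped. Its ORF had 6.68 and 8.73 in rtt109, 4.68 and 3.94 in hst3 hst4, and 0.219 and 0.144 in wild type. The log2 ratio changed by -5.39 ± 0.30 in rtt109 (limma, adjusted p = 0.000353) and by -4.34 ± 0.30 in hst3 hst4 (limma, adjusted p = 0.00345), while the gap strand differed by -0.12 and 0.11.

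Along the 1550 bp PIR1-PIR3 gap, the wild-type libraries held blocks of RNA from 100 to 650 bp and from 700 to 1150 bp upstream of PIR3 that reached 1.43 and 1.03, more than the 0.219 and 0.144 of the ORF itself. Those blocks were present in all 6 libraries, but not at equal levels. From 700 to 1150 bp both rtt109 libraries lay below both wild-type libraries in every bin. At 850 to 900 bp rtt109 had 0.57 and 0.823, hst3 hst4 had 1.64 and 0.767, and wild type had 1.43 and 1.03. From 100 to 350 bp both rtt109 libraries were also below both wild-type libraries. In the first 50 bp, next to the gene, all mutant libraries were above wild type, as in the ORF, at 2.11 and 4.14 in rtt109, 1.77 and 1.73 in hst3 hst4, and 0.159 and 0.038 in wild type. PIR3 has close relatives in PIR1 and other cell wall genes, so how reads of the ORF were shared is uncertain.

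Lower ratios in rtt109 also belonged to GRE1 and SIP18, both hydrophilins of the osmotic stress response, PHM8, RTN2, DPA10 and SNZ1, a gene of vitamin B6 synthesis. GRE1 had 0.0805 and 0.0665 on its gap strand in rtt109, 0.0547 and 0.0786 in hst3 hst4, and 0.0123 and 0.00624 in wild type, a difference of 1.70 with an adjusted p of 0.0645 by limma. Its ORF rose by 4.94 ± 0.37, and the log2 ratio changed by -3.24 ± 0.31 (limma, adjusted p = 0.00987). Both wild-type values of the GRE1 gap strand lie under the pseudocount, which understates the rise of that strand. Part of the fall of the ratio therefore comes from the pseudocount. Over 12 alternatives the GRE1 ratio changed by -4.36 to -2.38. The RTN2 gap strand had values below wild type in rtt109, at 0.446 and 0.328 against 0.892 and 0.604 in wild type, while its ORF rose. In RefSeq the gene next upstream of RTN2, YDL204W-A, lies on the same strand 319 bp away, within the 850 bp gap. Whether the RNA of that strand belongs to RTN2 was not tested. In 7 of the 18 the gap strand had a negative log2 fold change. Without replicate 1 or 2 of rtt109, 1 ratio passed in either case, and without replicate 1 or 2 of wild type 10 and 8 did. The single higher ratio was CRR1, at 2.11 ± 0.32 (limma, adjusted p = 0.0266). The CRR1 gap strand had a wild-type mean of 0.0146, under the pseudocount.

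**Figure D5:**
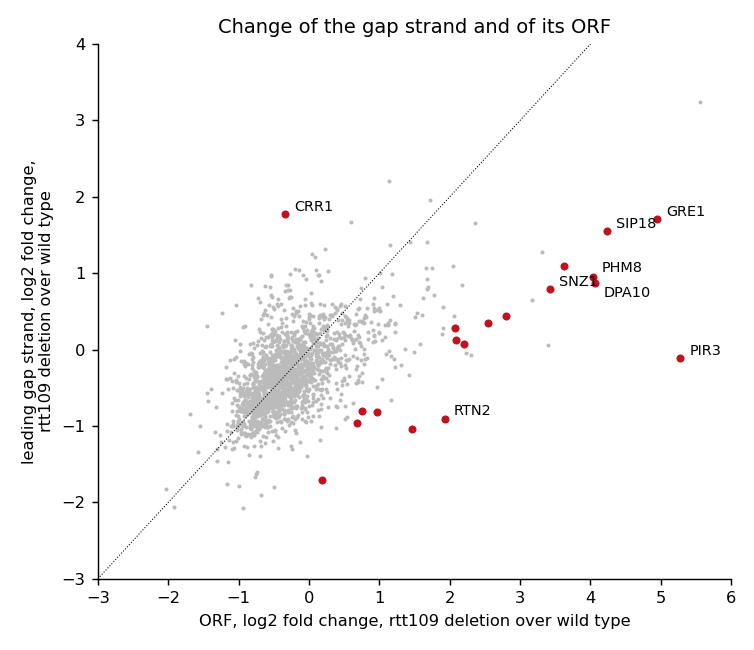
Log2 fold change in rtt109 over wild type of the leading gap strand (vertical axis) against that of its ORF (horizontal axis), for the 1748 strands with a tested ratio; red points had a ratio with an adjusted p under 0.05 and the dotted line marks equal change. PIR3, GRE1, DPA10 and PHM8 lie below the line, with vertical values of -0.12, 1.70, 0.87 and 0.95, and CRR1 alone lies above the line among the red points.

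In hst3 hst4 against wild type 2 ratios were lower and 1 was higher, where 0.276% of all ratios passed, 0.0276% higher and 0.248% lower. Unadjusted p was under 0.05 for 7.55% of the 1748 and 8.88% of all ratios, and ratios lay wholly above wild type in 16.5% and wholly below in 25.2% of cases, against 15.7% and 22.7%. INO1, for inositol phosphate synthase, joined PIR3 among the lower ones: its gap strand had 0.0328 and 0.0362 in rtt109, 0.0499 and 0.0402 in hst3 hst4, and 0.0447 and 0.0353 in wild type, and its ORF had 0.219 and 0.478, 1.31 and 1.62, and 0.201 and 0.172 in the same order. The INO1 ratio changed by -2.73 ± 0.38 (limma, adjusted p = 0.0483). ENA1, for a sodium pump, had the higher ratio, at 2.56 ± 0.30 (limma, adjusted p = 0.0386), and it lies beside near-identical copies, so its reads are uncertain. Without either rtt109 library none passed, and without replicate 2 of hst3 hst4, or without either wild-type library, 1 did.

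BAT1, for the mitochondrial branched-chain aminotransferase, had the only ratio that differed between hst3 hst4 and rtt109, by 2.48 ± 0.25 (limma, adjusted p = 0.0201). Of all ratios 0.0827% passed, 0.0276% higher and 0.0551% lower. Unadjusted p was under 0.05 for 7.89% of the 1748 and 8.68% of all ratios, and ratios lay wholly above rtt109 in 19% and wholly below in 17.5% of cases, against 19.3% and 16.9%. Its gap strand had 0.179 and 0.214 in hst3 hst4, 0.0632 and 0.0809 in rtt109, and 0.116 and 0.17 in wild type, and its ORF had 25.4 and 26.3, 53.1 and 69.8, and 25.2 and 38.8 in the same order. Without either rtt109 library, or without replicate 2 of hst3 hst4, none passed, and without either wild-type library 4 did.

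Seen from the genes, 23 ORFs led into by a tested gap strand rose in rtt109 and 2 fell. The gap strands of the 23 had a median log2 fold change of 0.64, against 2.80 for the ORFs. Of these strands 20 were positive, 14 had both rtt109 libraries above both wild-type libraries, and 1, HSP12, passed the threshold. Over all features 11.5% lay wholly above wild type, 0.761% rose and 75.5% were negative, and 1.31% of the 5971 ORFs tested rose. The 23 were chosen through ORFs called in the same libraries, so these counts are a description. In hst3 hst4, 32 ORFs rose, where 2.38% of all ORFs did, with a median of 0.96 on the gap strand and 2.02 on the ORF, and 4 of the strands passed, where 1.44% of all features rose. Across 1748 strands the log2 fold changes of gap strand and ORF had a Pearson r of 0.56 in rtt109, 0.54 in hst3 hst4 and 0.46 between the mutants, and points share libraries and the pseudocount. The 2 strands of 721 gaps showed far less of this, with r of 0.06, 0.09 and 0.10.

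Among well-known divergent pairs, the strand levels were unequal within each histone pair. HTA2-HTB2 had 0.963 and 2.11 on the HTA2 strand in rtt109, 2.34 and 1.15 in hst3 hst4, and 3.16 and 2.51 in wild type, and 0.117 and 0.197, 0.259 and 0.285, and 0.228 and 0.283 on the HTB2 strand in the same order. The HHF1 strand of HHF1-HHT1 had 0.829 and 1.52 in rtt109, 1.84 and 1.04 in hst3 hst4, and 1.57 and 2.05 in wild type, and the HHT1 strand stayed between 0.0241 and 0.0676. None of these passed. In the GAL10-GAL1 gap, the shared control region of the galactose genes, the GAL1 strand had 0.0437 and 0.0834 in rtt109, 0.0891 and 0.143 in hst3 hst4, and 0.0762 and 0.071 in wild type in this glucose medium, and the GAL10 strand fell under the filter. SNO1-SNZ1 had 0.909 and 0.596 on the SNZ1 strand in rtt109, 0.481 and 0.605 in hst3 hst4, and 0.329 and 0.531 in wild type, a difference of 0.79 with an adjusted p of 0.383 in limma for rtt109, while the SNZ1 ORF had 23.7 and 7.49, 4.66 and 7.1, and 0.67 and 2.24 in the same order. RIO1-GCY1 showed no strand past the threshold.

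Gap strands were also grouped by the function of the gene they lead into, with lists chosen when earlier results of these data were known. Of 40 general stress genes 14 are led into by a divergent gap and 13 were tested. In rtt109 and in hst3 hst4, 1 of the 13 rose, HSP12 in each case, where 0.761% and 1.44% of all features rose. The medians were 0.44 and 0.52, against -0.37 and 0.07 over all features. In the same comparisons 7 and 5 of the 13 ORFs rose, where 1.31% and 2.38% of all ORFs tested did. SIP18 had 1 and 0.382 on its gap strand in rtt109, 0.779 and 0.364 in hst3 hst4, and 0.236 and 0.168 in wild type, and all mutant libraries were above wild type, but the differences of 1.55 and 1.34 did not pass.

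Of 14 DNA damage genes 5 are led into by a divergent gap and 4 were tested. HUG1, higher in hst3 hst4, was the only call, where 1.44% of all features rose. The medians of the 4 were 0.16 in rtt109 and 0.87 in hst3 hst4, against -0.37 and 0.07 over all features. The histone list held the core histone genes, a variant H2A gene and the linker histone gene. Of these 9 of 10 were tested, the variant among them. HTA1, lower in rtt109, was the only call, where 0.149% of all features fell. The medians of the histone strands were -0.67 in rtt109 and 0.04 in hst3 hst4.

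Ribosomal protein genes gave the largest list, 66 of 137 genes, of which 61 were tested. None passed in either mutant. The median was -0.69 in rtt109 and -0.08 in hst3 hst4, and that of their ORFs was -0.80 and -0.16. In rtt109 40 of the 61 strands had both libraries below both wild-type libraries, where 42.7% of all features did. RPL27B had the smallest p, with 0.343 and 0.524 in rtt109, 1.54 and 0.558 in hst3 hst4, and 1.32 and 1.67 in wild type, a difference of -1.76 with an adjusted p of 0.0845 by limma. The 22 strands tested of the 24 leading into rRNA processing genes had a median of -0.82 in rtt109 and -0.38 in hst3 hst4, with none past the threshold. Their ORFs had -0.81 and -0.30, and all features had -0.37 and 0.07. In rtt109 10 of the 22 strands lay wholly below wild type, beside the 42.7% of all features. RRP5, a factor of early ribosome assembly, had 0.182 and 0.136 in rtt109, 0.398 and 0.191 in hst3 hst4, and 0.612 and 0.439 in wild type, a difference of -1.60 with an adjusted p of 0.0879 by limma.

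Mitochondrial ribosomal protein genes, with 20 of 23 strands tested, had medians of -0.32 and 0.24, and the 16 proteasome strands had -0.29 and 0.26, close to those of all features. The 4 strands leading into genes of the citric acid cycle had 0.32 and 0.43, none of them past the threshold. IDH1, a subunit of isocitrate dehydrogenase, had 0.395 and 0.6 in rtt109, 0.42 and 0.614 in hst3 hst4, and 0.301 and 0.238 in wild type, with both mutants above wild type. Its differences of 0.82 and 0.88 did not pass.

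Among genes whose divergent gap strand or ratio was called, promoter windows varied in their motifs. The 3 strands higher in rtt109 had a TATA box in all 3 windows and a stress element in 2, those of HSP12 and BRP1. Of the 4 lower strands, 2 had a TATA box. In the 18 genes with a lower ratio in rtt109, 12 windows held a TATA box and 5 a stress element. These genes were few and chosen by their change, so the shares are given as descriptions beside the 43.1% and 19.2% of all windows.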

How the data were processed

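Strand-specific coverage in 50 bp bins was deposited by the authors for 6 libraries in 1 table, with columns scaled to fission yeast RNA added at 1 part to 10 by mass and columns normalized to 1, per the file headers and the labels' protocols. The unit is a coverage signal, not a read count. Per the submitters' processing notes, CASAVA 1.7.0 was used and the fission yeast build was ASM294v2. Which aligner and which budding yeast build were used is not given in the sources used here. A number was missing in 11670 bins (4.84%). No column of sample values was left unused.

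The deposited coverage was out of register with the annotation in the same table. Sense coverage at ORF starts lay 100 bp to the left on 13 chromosomes, and chromosomes 1, 2 and 10 had a further break. Shifts were estimated by aligning the strand asymmetry of coverage with ORF strands, 88.2% of bins took a shift of 2 bins, and regions within 100 bins of a break were left out. The breaks on chromosomes 1, 2 and 10 improved that alignment by 0.0613%, 0.0807% and 2.93%. After the shift 98.5% of ORF coverage was on the sense strand. The shifts were chosen for strand agreement at ORFs, so this share is not a separate check of the register. Coverage profiles of Watson and Crick ORFs, at their starts and at their ends, mirrored each other best with no further shift in every library.

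Gap strands, upstream zones from 200 bp and gap-to-ORF ratios were each fitted over all features of the table with limma 3.58.1 in R 4.3.3, on log2 of the mean coverage plus 0.0193 (the 5th percentile of ORF values above 0), with an intensity trend, all 3 groups in 1 fit and Benjamini-Hochberg adjusted p under 0.05. The fit was tested on simulated data. Features whose mean over the 6 libraries was below the pseudocount were left out. Library totals were compared by exact permutation tests in Python 3.11.15. Genes are named by rule: well-known pairs, up to 8 called gap strands and 5 called zones or ratios in each direction, the 6 highest, and up to 3 of each functional list. ECO1 and genes named only as neighbours fall outside it. The members and the lists were chosen with earlier results of these data known. Alternatives to the filter, pseudocount, scaling, register and libraries used were run.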

Additional observations from a re-analysis of the deposited data

How the results depend on the processing

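Counts of calls were small and depended on the settings. Without a filter on low values no gap strand or upstream zone passed (0 in each of the 3 comparisons), while ratios gave 5 in hst3 hst4 against wild type and 2 in hst3 hst4 against rtt109. A filter at 10 times the pseudocount left 1 gap strand in hst3 hst4 against wild type and 0 against rtt109, and 2, 1 and 1 zones in the 3 comparisons. A pseudocount 10 times larger gave 1 gap strand in rtt109 and 2 ratios between the mutants, and one 10 times smaller gave 5 ratios in hst3 hst4. Centring gave 16 gap strands and 11 zones in rtt109, where 320 of 12091 and 257 of 9580 features passed. Between the mutants it gave 2 gap strands, where 51 of 12091 features passed. Columns normalized to 1 gave 0 gap strands and 1 zone between the mutants. Gaps fitted without ORFs gave 1 gap strand and 1 zone in rtt109 and 1 zone between the mutants. Leaving out the first and last bin gave 3 gap strands in hst3 hst4, and zones from 300 bp gave 6 between the mutants. Reading the coverage at the table's own positions, without the register shift, an alternative chosen after seeing the data, gave 2 gap strands between the mutants and 4, 1 and 0 ratios. The cause of these changes was not tested.

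With a replicate block, gap strands numbered 3 in rtt109 and 0 between the mutants, zones 3 and 1, and ratios 0 between the mutants. Replicate numbers did not pair the libraries: deviations of same-numbered libraries had correlations of 0.0489, -0.0148 and -0.0173.

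Leaving out 1 library at a time, where the lone library left in a group is assumed to vary like the other groups, gave 0 to 21, 0 to 8 and 0 to 5 gap strands, 0 to 19, 1 to 13 and 0 to 16 zones, and 1 to 16, 0 to 2 and 0 to 4 ratios, in rtt109 against wild type, hst3 hst4 against wild type and hst3 hst4 against rtt109. The difference in mean coverage ran between -0.104 and -0.0342, -0.0411 and 0.0275, and 0.0275 and 0.097, and that in the share of coverage (percentage points) between -0.0805 and 0.0235, -0.0535 and 0.0495, and -0.0255 and 0.0785. Without the highest 5% of gaps the share differed by 0.0005 in rtt109 and 0.0215 in hst3 hst4 against wild type, and mean coverage in hst3 hst4 by 0.00308; the median over gap strands differed by 0.00888. These have the opposite sign to the values over all gaps. Over named genes, 367 alternative values kept their side of the threshold, 219 lost the call and 0 changed sign. Calls that passed in under 50% of their alternatives were the gap strands of HTA1 and YAR1 (7 of 18 each), BUD27 (8 of 18) and AGP3 (5 of 17), the zones of HTC1 (4 of 15) and TDA2 (7 of 17), and the ratios of ENA1 (4 of 12) and INO1 (3 of 12). HSP12 passed in 15 of 18 in each mutant, and the PIR3 ratio in 12 of 12 in rtt109 and 10 of 12 in hst3 hst4.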
